A study of Drosophila melanogaster with 4 samples.

Results

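The Snail family genes escargot (esg), worniu (wor) and snail (sna) lie together on arm 2L of Drosophila melanogaster, and the chromatin mark H3K27me2 was followed over the 750001 bp that surround them. The members are these 3 genes, of 3 named by the rule, and the stretch is the window from 15000000 to 15750000 on 2L in FlyBase release 5, which is 3.26% of the 23011544 bp of the arm. The window was chosen by its measured cover and scores in these lists, so cover, blocks without a region and scores are given as descriptions with no test. It held 38 of the 10114 enriched regions listed for ChIP replicate 1, 42 of 10115 for ChIP replicate 2 and 90 of 16728 in the list of the whole series.

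The data come from ChIP-seq, in which chromatin is precipitated with an antibody and the recovered DNA is sequenced, on heads of adult flies of the wild-type strain Oregon-R-modENCODE. There were 2 samples precipitated with the antibody Ab24684 and 2 input samples of chromatin DNA, with no mutant and no treatment. The stage is given as mixed adult and no sex is stated, and nothing says whether the replicates are separate collections, so their spread may be technical. Heads hold neurons, glia, fat body and muscle, and in such bulk chromatin fewer nuclei with the mark and less mark per nucleus cannot be told apart.

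Snail family proteins are zinc-finger transcription factors that act mainly as repressors. The gene sna is required in the embryo for the mesoderm to form, wor is expressed in neuroblasts, the dividing precursors of the nervous system, and esg marks stem and progenitor cells such as those of the adult midgut. All 3 act together in the divisions of embryonic neuroblasts. H3K27me2 is the dimethylated form of lysine 27 of histone H3. It is made by Polycomb repressive complex 2, whose trimethylated product marks silenced developmental genes and was not measured in these samples.

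Along 2L the order of the members in the RefSeq gene table (release 6 assembly, used for names and order alone) is esg, wor and sna. Between esg and wor the table lists 7 genes, namely the protein-coding genes CG15258 and CG44869 and 5 long noncoding RNA genes. Between wor and sna it lists 5 genes, of which CG4161 is protein-coding and 4 are long noncoding RNAs. The nearest protein-coding neighbours outside the group are nht, a testis homologue of a general transcription factor subunit, beside esg, and Tim17b2, which belongs to a mitochondrial import family, beside sna. The positions of single genes on release 5 were not analysed here. No enriched region is therefore assigned to a gene, and the values below are those of the shared window.

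Over the window, less sequence was listed as enriched than over the rest of 2L. The cover, which is the share of bases inside a listed region, over the window was 10.2% for replicate 1 and 11.8% for replicate 2. Over the rest of 2L it was 18.0% and 18.1%, and over the whole arm 17.7% and 17.9%. The mean of the replicates was 11.0% ± 1.18 in the window and 18.0% ± 0.0573 on the rest of 2L (SD, n = 2). The difference was -7.82 percentage points for replicate 1 and -6.24 for replicate 2. Its mean was -7.03 ± 1.12 (SD, n = 2). In the wider list of the series the window was covered to 32.1% and the rest of 2L to 41.2%, with 40.9% for the whole arm. The window lay below the rest of the arm in all 3 lists. The series' list is named as a set of replicates and is not a further sample. In the window it held 94.2% of the bases listed for replicate 1 and 96.8% of those for replicate 2.

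Both the number of regions per Mb and their median length were lower in the window. There were 50.7 regions per Mb in replicate 1 and 56.0 in replicate 2 over the window, against 71.0 and 73.1 per Mb over the rest of 2L. Within the window the median length of a region was 1634.5 bp for replicate 1 and 1730 bp for replicate 2, against 1927.5 bp and 1919 bp elsewhere on the arm. In the series' list the number per Mb was close, 120.0 in the window and 124 on the rest of 2L, and the median length was 1851.5 bp against 2092 bp. Regions over 10 kb numbered 0 of 38 in replicate 1, 1 of 42 in replicate 2 and 2 of 90 in the series' list within the window. On the rest of 2L they numbered 11 of 1580, 10 of 1627 and 123 of 2765. The share was thus higher in the window in replicate 2 and lower in the other lists, and in the window it rests on very few regions.

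**Figure D1:**
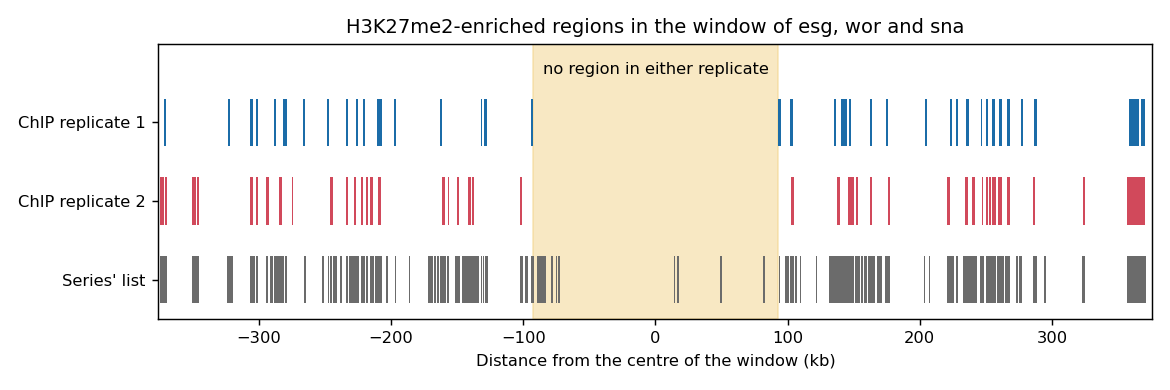
Enriched regions of the 3 lists across the window, drawn to scale as bars, with distance from the centre of the window in kb on the horizontal axis. The shaded stretch of 185.653 kb holds no region of either replicate, and 10 whole regions of the series' list.

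The central part of the window carried no call in either replicate. A block of 185653 bp, from 15282377 to 15468029, held no region of replicate 1 or replicate 2, and made up 24.8% of the window. Replicate 1 alone had its empty block at exactly these positions. Replicate 2 alone had a longer one of 203133 bp, from 15274355 to 15477487, which contains the other. The borders thus differed between the replicates by 8022 bp on the low side and by 9458 bp on the high side. Among all blocks of 2L without a call, this one ranked 6 by length in replicate 1, 3 in replicate 2 and 3 among blocks empty in both replicates.

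The calls at the low border scored below most regions of the arm. The last region before the block was 1367 bp long in replicate 1 (15281010 to 15282376, score 0.60), and 1553 bp long in replicate 2 (15272802 to 15274354, score 0.50). The score is the authors' own value for a region, and its values equal log2 of a ratio of whole numbers, less a constant that each list has of its own. The ratio is read here as ChIP over input reads, which no header states. Of the regions on 2L, 32.7% scored below the region of replicate 1 and 11.8% below that of replicate 2. Neither region overlapped a call of the other replicate.

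At the high border the block ended with a region of replicate 1 of 1640 bp (15468030 to 15469669, score 0.59), which had no counterpart in replicate 2. The first region beyond the block that all 3 lists share came next, a region from 15476784 to 15479268 in replicate 1, which overlapped that of replicate 2 from 15477488 to 15479492. It scored 0.68 in replicate 1, above 65.6% of the regions of 2L in that list, and 0.64 in replicate 2, above 65.9%. In the series' list it ran from 15476832 to 15479659 with a score of 0.61, above 93.8% of the regions of 2L and the fourth highest in the window. The ratio behind that score was 730 to 421, which gives a counting error of at most 0.088 on the log2 scale. Replicate 1 covered 86.2% of this 2828-bp region and replicate 2 covered 70.9%. After it, the next call of either replicate began 30320 bp further on.

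The series' list placed 10 regions of 1001 to 2709 bp wholly inside the block. With the end of another that crosses the low border, they covered 8.68% of it. On the low side 6 of them lay between 15285354 and 15303183. The other 4 stood apart, at 15388706 to 15389706, 15391377 to 15392877, 15423613 to 15425381 and 15456566 to 15457593. Their lengths were 1001, 1501, 1769 and 1028 bp and their scores 0.49, 0.32, 0.42 and 0.47. The median score of the 10 was 0.45, against a median of 0.43 over the rest of 2L in that list. None of the 10 touches a replicate's region, so all regions are not their like. The 1114 regions of the rest of 2L that touched neither replicate had a median score of 0.40. The longest stretch of the window without any call of the series' list was 85522 bp, from 15303184 to 15388705, the ninth longest on 2L. The shortest region is 1001 bp in the series' list and 1301 bp in the replicates, and 4 of the 10 regions are shorter than 1301 bp.

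**Figure D2:**
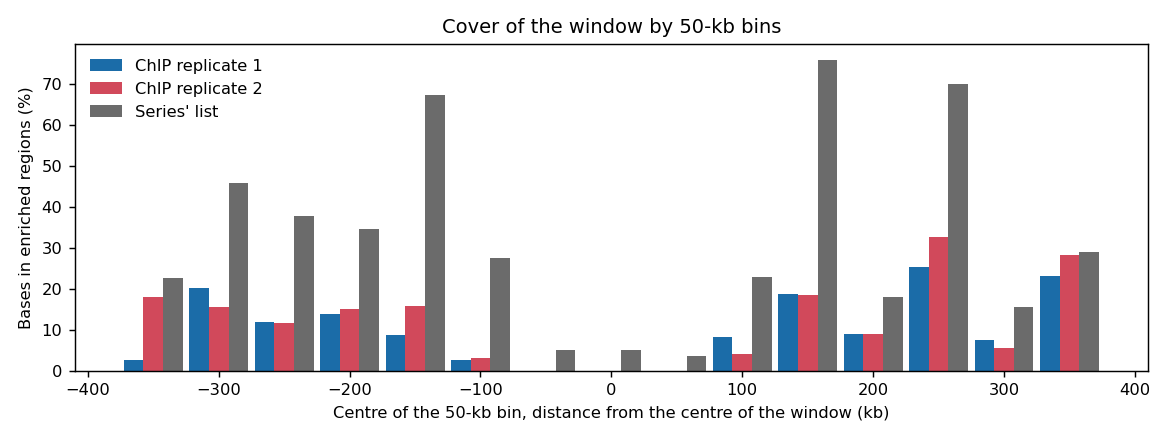
Share of bases in enriched regions (%) in 15 bins of 50 kb along the window, for the 2 ChIP replicates and the series' list; bins are placed by distance from the centre of the window in kb. In 3 neighbouring bins near the centre both replicates are at 0 and the series' list is at 5.17%, 5.00% and 3.54%.

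The sequence on both sides of the block carried calls in every list. On the low side, 282.377 kb were covered to 10.7% by replicate 1, 14.0% by replicate 2 and 38.9% by the series' list. On the high side, 281.971 kb were covered to 16.3%, 17.4% and 40.7% in the same order. The high side thus came close to the 18.0% and 18.1% of the rest of 2L in the replicates, and the low side stayed below. In the series' list the rest of 2L had 41.2%, near both sides. The sides leave out the longest empty block of the window, while the rest of 2L keeps its own long blocks, so the 2 are not alike. By bins of 50 kb, cover had a range of 0% to 25.4% for replicate 1, and of 0% to 32.8% for replicate 2. The bin with the highest cover in both replicates began at 15600000. The series' list had its highest bin, at 76.1%, at 15500000, where the replicates had 18.7% and 18.5%.

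The longest enriched region of the window lay at its high end. In the series' list it spanned 14460 bp, from 15731575 to 15746034, with a score of 0.67, above 96.8% of the regions of 2L. Replicate 1 had 2 regions there, of 8004 and 3612 bp with scores of 0.73 and 0.76, and covered 80.3% of it. Replicate 2 had 1 region of 14182 bp with a score of 0.73 and covered 97.7%. The ratio in the series' list was 4447 to 2457, the largest numbers in the window, with a counting error of at most 0.036 on the log2 scale. Of the named regions this one had the highest mean replicate cover, 89.0% ± 12.3 (SD, n = 2).

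The next longest regions of the series' list were less fully called in the replicates. The region from 15509852 to 15522817 (12966 bp, score 0.51) was covered to 53.8% by replicate 1 and 30.3% by replicate 2. The region from 15624702 to 15632815 (8114 bp, score 0.51) was covered to 49.8% and 71.3%. At the low edge of the window the region from 14999059 to 15005729 (6671 bp, score 0.50) was covered to 19.7% and 76.3%. The fifth, from 15607713 to 15613502 (5790 bp, score 0.44), was covered to 33.5% and 35.4%. All 5 of the longest regions touched both replicates, and 4 of them lay on the high side of the block.

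The 5 highest scores of the series' list in the window were found on the high side of the block as well. The top score, 0.76, belonged to a region of 1206 bp from 15669247 to 15670452, which neither replicate listed. Its ratio of 79 to 41 gives a counting error of at most 0.28 on the log2 scale, the widest of the 5 highest. The third, from 15660790 to 15663387, scored 0.66 and was listed in both replicates, with scores of 0.82 and 0.77. These were the second highest score of the window in replicate 1 and the highest in replicate 2. The ratio in replicate 2 was 17 to 10 in lowest terms, which gives a counting error of at most 0.57. In replicate 1 it was 199 to 86, with at most 0.19. The fifth, from 15697903 to 15699707, scored 0.55 and was listed in replicate 2 alone, with a score of 0.72. The second and the fourth are the 14460-bp region and the 2828-bp region that all 3 lists share.

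**Figure D3:**
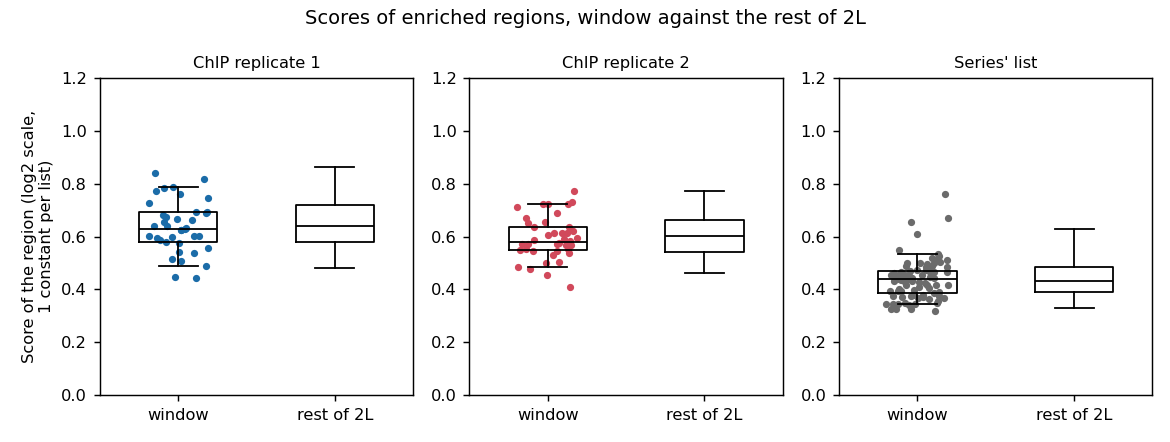
Scores of enriched regions (log2 scale, each list with its own constant, so that levels are not comparable between panels) in the window, shown as points and a box, and on the rest of 2L, shown as a box. Boxes give quartiles and median, whiskers the 5th and 95th percentiles, and points beyond the whiskers are not drawn for the boxes. Medians in the window and on the rest of 2L lie at 0.63 and 0.64 for replicate 1, 0.58 and 0.60 for replicate 2, and 0.44 and 0.43 for the series' list.

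Replicate 1 had a median score of 0.63 in the window and 0.64 on the rest of 2L, and replicate 2 had 0.58 and 0.60. The differences were -0.0088 and -0.021, and in the series' list 0.0097 in the other direction. The median counting error of a single region in the window was at most 0.19 in replicate 1 and 0.18 in replicate 2. This error belongs to 1 region and does not measure the spread of a median or of a difference between medians. In replicate 1, 17 of the 38 regions of the window (44.7%) scored above the median of the rest of 2L, and in replicate 2 it was 17 of 42 (40.5%). The series' list went the other way, with 51 of 90 (56.7%). The highest score of the window was 0.84 in replicate 1, against a highest score of 1.64 on the rest of the arm, and 0.77 against 1.26 in replicate 2. A highest score tends to rise with the number of regions, here 38 and 42 against 1580 and 1627, so these values are not alike. The upper quartiles lay closer, at 0.69 against 0.72 in replicate 1 and 0.64 against 0.66 in replicate 2.

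The whole numbers behind the scores were smaller in the window. Their medians, read as ChIP and input reads per region, were 168 and 84.5 in replicate 1 within the window, against 212 and 106 on the rest of 2L. In replicate 2 they were 170 and 113 in the window, against 203 and 137. Regions of the window were also shorter, and the numbers are in lowest terms, so true read numbers may be a multiple of them. The lists hold no library totals, so the depth of each library is unknown.

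By bases and by an overlap of at least 1 bp, calls in the window were shared between the replicates somewhat less than on the rest of the arm. The Jaccard index, which is the bases covered in both replicates over the bases covered in either, was 0.263 in the window and 0.339 on the rest of 2L. In the window 34.3 kb lay in both replicates and 130 kb in at least one. At least 1 bp was shared by 22 of 38 regions of replicate 1 (57.9%) and 21 of 42 of replicate 2 (50.0%) in the window. On the rest of 2L the shares were 62.0% and 60.4%. When at least 50% of both regions had to overlap, the shares were 34.2% and 31.0% in the window, against 31.9% and 31.0% on the rest of 2L, so the window was then no lower. Of the 90 regions of the series' list in the window, 20 (22.2%) touched both replicates, 31 touched 1 and 39 (43.3%) touched neither. On the rest of 2L 26.1% of 2765 touched both and 40.3% touched neither. The Jaccard index and the 1-bp shares tend to fall with cover, which was lower in the window, and they were not adjusted for it. These shares come from 1 window and were not tested.

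**Figure D4:**
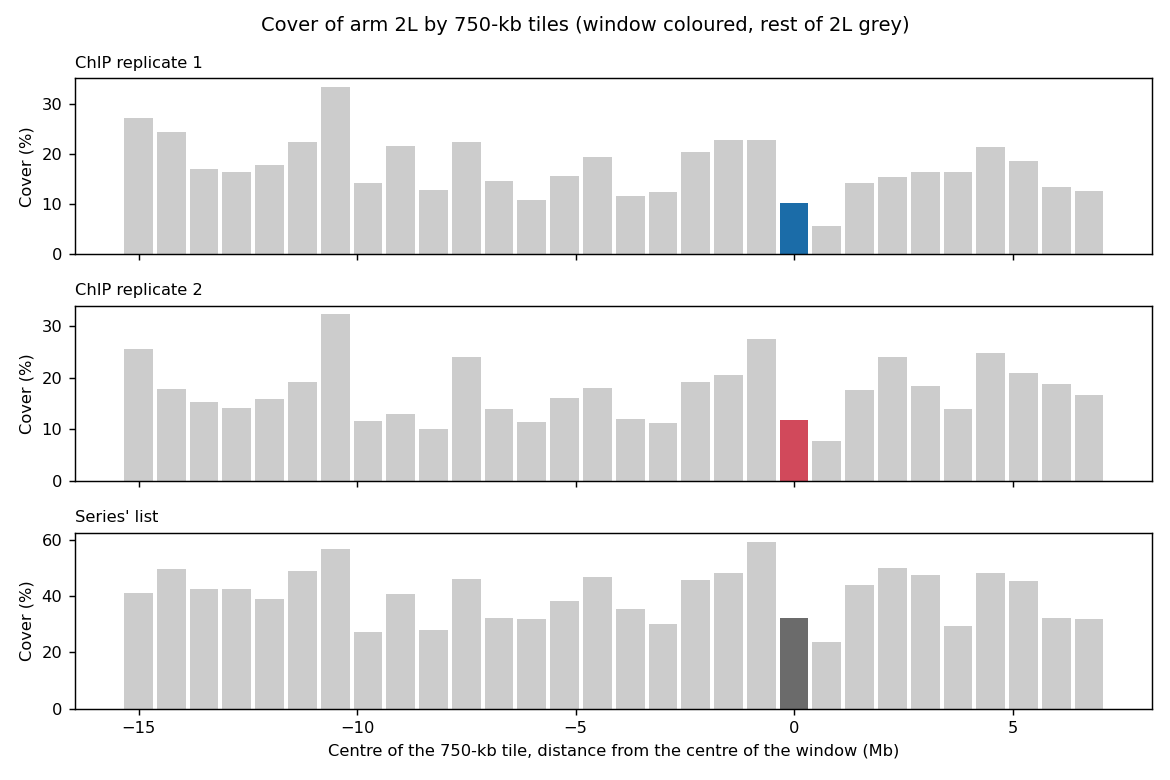
Cover (%) of 30 tiles of 750 kb along 2L in each list, placed by distance from the centre of the window in Mb, with the tile of the window coloured and the rest of 2L in grey. The tile next to the window on the high side is the lowest of the 30 in all 3 lists. The tiles end at 22500000, short of the end of the arm.

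Compared with other stretches of its size, the window was low but not the lowest. When 2L was divided into 30 tiles of 750 kb, cover had a median of 16.4% in replicate 1 and 17.0% in replicate 2. The tiles ended at 22500000, so the last bases of the 23011544 bp of the arm were in no tile. Tiles with less cover than the window numbered 1 in replicate 1, 5 in replicate 2 and 7 in the series' list. The neighbouring tile on the high side, from 15750001 to 16500000, was the lowest in all 3 lists, with 5.56%, 7.86% and 23.7%. The tile on the low side was among the highest, with 22.8%, 27.3% and 59.4%.

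At the edges of the window, cover did not step in the same way in all lists. In the 50 kb just inside the low edge it was 2.63% in replicate 1, 18.0% in replicate 2 and 22.6% in the series' list, against 7.39%, 9.22% and 20.1% in the 50 kb just outside. Just inside the high edge it was 23.2%, 28.4% and 28.9%, against 9.98%, 22.8% and 43.5% just outside.

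**Figure D5:**
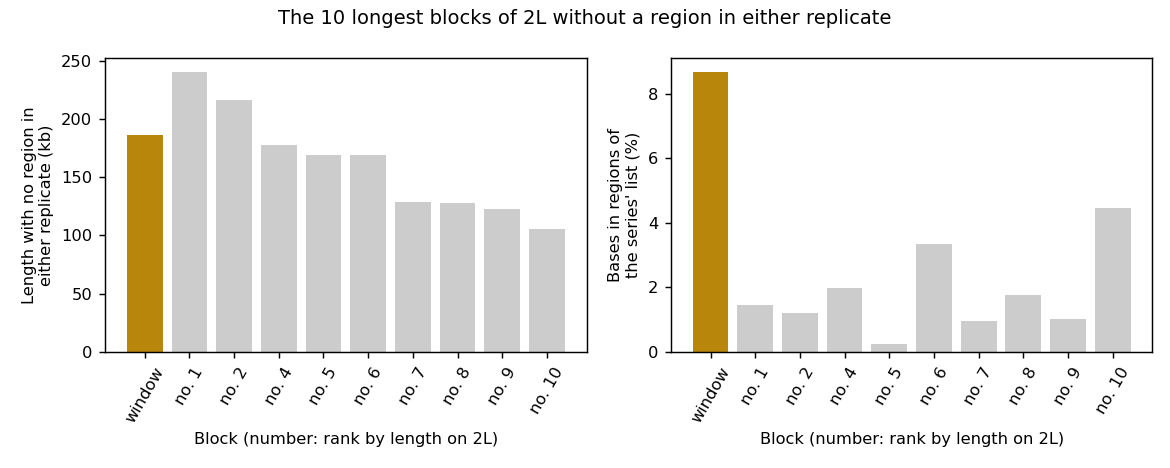
The 10 longest blocks of 2L without a region in either replicate, with the block of the window first and the others by rank; the left panel gives their length in kb and the right panel the share of their bases in regions of the series' list (%). The block of the window is 185.653 kb long and has the highest share of these 10, 8.68%, most of which lies at its low end.

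The block in the window was set beside the other 9 of the 10 longest blocks of 2L that were empty in both replicates, which ran from 105.35 to 240.152 kb. In the window's block the series' list covered 8.68% and held 10 whole regions, against 0.226% to 4.48% and 0 to 3 whole regions in the other 9. Of these 10 regions, 6 lay at the low end of the block, between 15285354 and 15303183, so most of the 8.68% came from there. The share over the remainder of the block alone was not set beside the other 9. The longest stretch of the window's block without a call of the series' list, 85.522 kb, was exceeded in 6 of the other 9. These were both blocks longer than it, with 215.285 and 201.335 kb, and 4 shorter ones, with 169.549, 168.613, 151.794 and 127.019 kb. The 100 kb on each side of it were covered to 10.2% in replicate 1, 11.2% in replicate 2 and 45.8% in the series' list. On the sides of the other 9 blocks these values ran from 5.73% to 22.8%, from 9.56% to 21.3% and from 20.0% to 44.6%. The replicates' values around the window's block fell inside these ranges, and that of the series' list lay just above. A block is sequence without a call, and the part that unalignable sequence may have in it was not tested.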

How the data were processed

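Reads were aligned with Bowtie 0.12.7 per the submitters' processing notes. Per the file headers, each deposited list gives regions of significant enrichment on FlyBase release 5, with start, end and score. The score was deposited by the authors with no stated scale. What called the regions, at which threshold, and how the series' list was made was not given in the sources used here. The inputs have no list. Scores were compared within 1 list, and read as log2 ratios of whole numbers (relative tolerance 1e-12). All scores of each list met that tolerance. The constant of a list was the one that gave the smallest whole numbers over a subset of its distinct scores. Only constants that gave the most frequent score whole numbers of at most 60 were tried. Counting errors assume that the numbers are reads and cover counting error only.

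Cover was counted base by base with Python 3.11.15 and numpy 2.4.6, and the functions were tested on simulated data. A region belongs to the window when it overlaps it by at least 1 bp. Named regions are the 5 longest and the 5 highest-scoring of the series' list in the window, and the longest blocks. The members and lists were chosen with earlier results of these data known. Gene names and order came from RefSeq, where 3 of 3 members matched. No test was made, since the window was chosen on these measures and there is 1 group of 2 ChIP replicates. Alternatives were the series' list, leaving out each replicate, scores above the median, other window edges, the rest of 2L without its proximal 2 Mb, merging of regions less than 1 kb apart, and a 50% overlap.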

Additional observations from a re-analysis of the deposited data

How the results depend on the processing

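No paired analysis was possible because of each replicate number only the ChIP sample has values here. The mean cover of the window (11.0%) was 32.1% in the series' list, 4.65% with scores above the median, and 8.30% with the window narrowed to its central 500 kb. It ranged from 10.2% to 11.8% with 1 replicate left out. The difference from the rest of 2L (-7.03 percentage points) was -9.11, -4.76 and -9.70 under these settings, and ranged from -7.82 to -6.24 with 1 replicate left out. It kept its direction under all settings run, also with the window widened by 250 kb and without the proximal 2 Mb. As a ratio of window to rest of 2L, cover was 0.565 in replicate 1, 0.655 in replicate 2 and 0.779 in the series' list. The relative gap was thus smaller in the series' list, although its gap in percentage points was larger. The mean number of regions (40) was 90 in the series' list and 12.5 above the median score, and from 38 to 42 with 1 replicate left out.

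The longest block (185.653 kb) was 85.522 kb in the series' list, 229.537 kb above the median score, and from 185.653 to 203.133 kb with 1 replicate left out. In the series' list limited to regions of at least 1301 bp, a setting added after seeing the data, it was 88.193 kb, so the length of the block depended on the list. The difference in median score (-0.015) turned to 0.0097 in the series' list, and the cause was not tested. It ranged from -0.021 to -0.0088 with 1 replicate left out. The Jaccard index (0.263) was 0.256 above the median score and 0.264 after merging. The shared regions (53.9%) were 27.9% above the median score and 32.6% with an overlap of 50%.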

Other observations

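One region of replicate 2 in the window, from 15099808 to 15101165 (1358 bp), overlapped no region of the series' list, although its score of 0.73 was the third highest of the window in that replicate. It was named after its values were seen. On the rest of 2L, 12 of 1627 regions of replicate 2 and 28 of 1580 of replicate 1 were likewise outside the series' list, and in the window 0 of 38 regions of replicate 1 were. The highest score of the window in replicate 1, 0.84 for the region from 15245549 to 15247246, had no counterpart in replicate 2.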
